A study of Homo sapiens with 6 samples.

Results

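Genes that encode the adherens and tight junctions of epithelial cells were followed in Cal33, an established cell line from a human oral squamous cell carcinoma. The set was defined by name and held 10 genes: CDH1, CDH3, CTNNB1, CTNNA1, CLDN1, CLDN4, CLDN7, OCLN, TJP1 and EPCAM. All 10 were found among the 14136 gene entries of the deposited table, and all 10 were among the 12210 genes tested. Cells of the CES2 group (3 libraries) had received a lentivirus made with the pSin-EF2 plasmid carrying CES2 with a FLAG tag, and cells of the Vector group (3 libraries) had received the empty plasmid's virus. CES2 encodes carboxylesterase 2, an esterase of the endoplasmic reticulum. Both groups had thus been infected, and both were selected for stable carriage with puromycin at 0.5 ug/ml. Whether libraries within a group stem from separate infections or cultures is not stated. P-values thus reflect the spread among these samples alone, and that spread may be technical.

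Adherens junctions hold neighbouring epithelial cells together through classical cadherins, which bind one another outside the cell and are tied to actin inside it by beta-catenin and alpha-catenin. Tight junctions lie nearer the apical side, where claudins and occludin seal the space between cells and the scaffold ZO-1 anchors them. Loss of these proteins is a widely used sign of the epithelial to mesenchymal transition in squamous carcinomas, while EPCAM and P-cadherin are often abundant in such tumours.

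Values were TPM, a level scaled per transcript length and to a fixed total per library, so levels of different genes can be set side by side, but sequencing depth is unknown. The labels were checked with CES2 itself, which averaged 2296 ± 368 TPM in CES2 libraries and 44.1 ± 1.96 TPM in Vector libraries (SD, n = 3 each). It was the single gene past an adjusted p of 0.05 among the 12210 tested by limma, a background of 0.00819%, and 133 genes (1.09%) had an unadjusted p under 0.05. The squamous epithelial marker list was found in full, with 9 of 9 genes and summed levels of 4494 to 5981 TPM in CES2 libraries and 4664 to 5837 TPM in Vector libraries. KRT5 (1031 to 2597 TPM) and KRT17 (1111 to 1941 TPM) were its highest genes, while KRT14 was low, at 1.14 to 2.97 TPM. KRT5 and KRT14 were named after their values were seen. Of 8 fibroblast markers 1 had an entry, COL1A1, at 3.89 to 10.5 TPM in CES2 libraries and 4.49 to 9.36 TPM in Vector libraries. The 4 of 7 leukocyte markers with an entry summed to at most 12.4 TPM in any library, and the 5 of 7 endothelial markers to at most 27.1 TPM. Most of the endothelial sum was the cadherin gene CDH5, named after its values were seen. CDH5 was at 13.7, 8.75 and 19.6 TPM in CES2 libraries, against 8.25, 25.3 and 20.9 TPM in Vector libraries. The libraries did not sort by group over all tested genes: the closest pair was CES2 2 and Vector 1 (Pearson r = 0.978 of log2(TPM + 1)), and the most distant was CES2 3 and Vector 1 (r = 0.927).

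None of the 10 junction genes differed between CES2 and Vector cells beyond the spread between libraries. By limma, 0 were past the threshold in either direction, 0 had an unadjusted p under 0.05, and the adjusted p was 0.9998 for each. CES2 and Vector values overlapped in all 10, where groups did not overlap in 3.7% of all tested genes (1.07% higher and 2.63% lower in CES2). The log2 fold change was above 0 for 5 members and below 0 for 5, with a median of -0.011, beside a median of -0.057 over all tested genes. The sign depended on scaling for CTNNA1 (positive under median rescaling) and for CTNNB1 and EPCAM (negative under quantile normalization). These fold changes are differences of log2(TPM + 1), CES2 minus Vector, a scale that understates the change of low genes. The estimates ran between -0.33 for CLDN7 and 0.94 for CLDN4. A member that missed the threshold is not shown to be the same in both groups. For CTNNA1, the most even gene, the 95% interval of the log2 fold change was -0.40 to 0.34, and for CLDN4, the most uneven, it was -1.17 to 3.05.

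**Figure D1:**
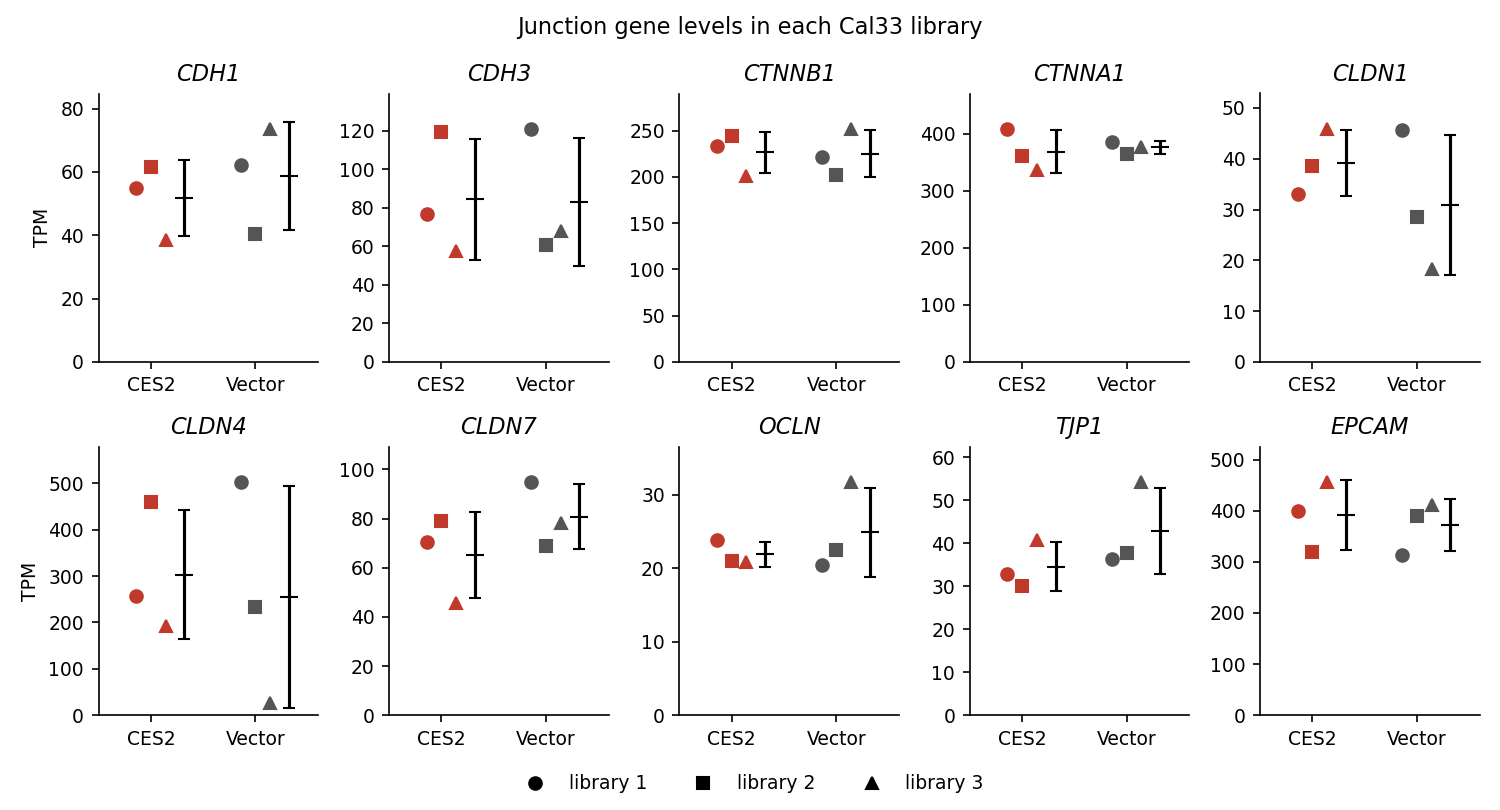
Level in TPM (linear axis from 0) of each of the 10 junction genes in the 3 CES2 libraries (red) and the 3 Vector libraries (grey), with symbols for library number and bars for the mean and SD. Every panel has overlapping groups, and CLDN4 in Vector 3, at 26.6 TPM, lies far under the other 5 libraries.

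**Figure D2:**
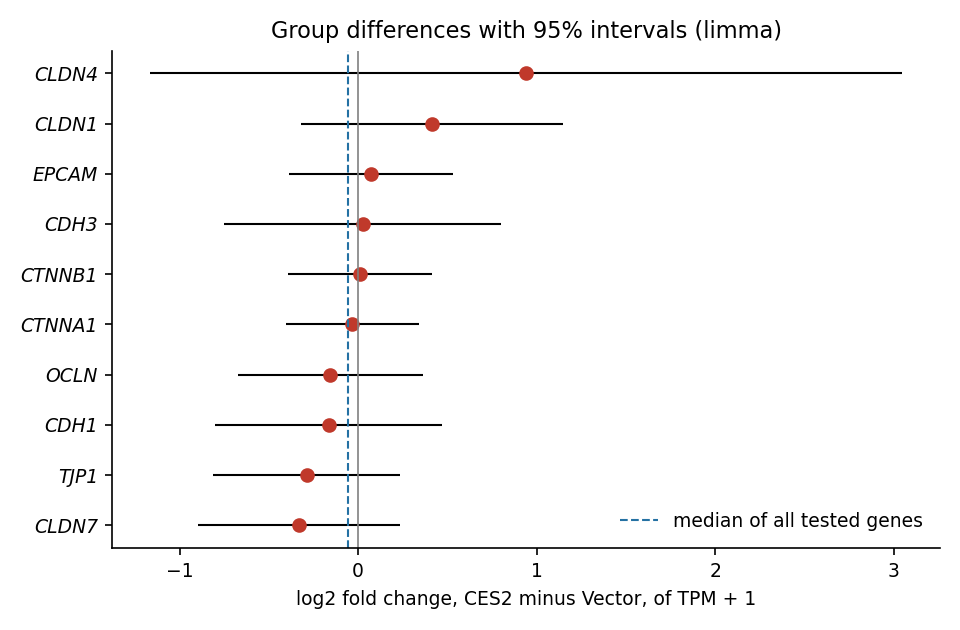
Log2 fold change of TPM + 1, CES2 minus Vector, for each junction gene (points), with its 95% limma interval (lines) and the median of all tested genes (dashed line at -0.057). All 10 intervals include 0, and that of CLDN4 is the widest, from -1.17 to 3.05.

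CDH1 encodes E-cadherin, the main cadherin of epithelial adherens junctions. It lies on chromosome 16 from 68737225 to 68835548 (GRCh38, plus strand, listed transcript of 16 exons and 4889 bases). CDH1 was at 55.0, 61.6 and 38.5 TPM in CES2 libraries, against 62.1, 40.3 and 73.7 TPM in Vector libraries. The lowest values, CES2 3 and Vector 2, came from different groups, and the groups overlapped. CES2 minus Vector came to -0.16 log2 units (standard error, SE, 0.28), and it was 0.018 without Vector 3 and 0.030 without CES2 3.

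CDH3 encodes P-cadherin, the cadherin of basal cells in stratified epithelium. It sits beside CDH1 on the same strand of chromosome 16, from 68644836 to 68700295 for the listed transcript, and the annotated gene ends 14608 bases before CDH1 begins. The CES2 gene ends 1.69 Mb before CDH3 begins. CDH3 was at 76.5, 119 and 57.4 TPM in CES2 libraries, against 121, 60.4 and 67.7 TPM in Vector libraries. A single library in each group, CES2 2 and Vector 1, stood near 120 TPM (119.0 and 121.0 TPM) and the other 4 libraries lay at 57.4 to 76.5 TPM. Its log2 fold change was 0.026 (SE 0.34).

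P-cadherin transcripts outnumbered E-cadherin transcripts in 5 of 6 libraries. The CDH3 to CDH1 ratio, which does not depend on how a library was scaled, was 1.39, 1.93 and 1.49 in CES2 libraries, against 1.95, 1.498 and 0.918 in Vector libraries. Vector 3 was the library in which CDH1 was the higher of the pair. The difference in the log2 ratio was 0.19 (exact two-sided permutation p = 0.9, adjusted p = 0.9 over 6 ratios). With 3 libraries against 3, that test cannot go below 0.1. Without Vector 3 the difference in the log2 ratio was -0.10.

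CTNNB1 encodes beta-catenin, which binds the cadherin tail and also acts as the transcriptional effector of Wnt signalling. Its listed transcript (16 exons, 3278 bases) runs on chromosome 3 from 41194741 to 41239949 on the plus strand. CTNNB1 was at 234, 245 and 201 TPM in CES2 libraries, against 221, 202 and 252 TPM in Vector libraries. The ranges of the groups nearly coincided, and the means were 227 ± 22.5 TPM in CES2 cells and 225 ± 25.6 TPM in Vector cells (SD, n = 3 each). This gave a log2 fold change of 0.011 (SE 0.17).

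CTNNA1 encodes alpha-catenin, which couples beta-catenin to actin. It lies on the plus strand of chromosome 5, where the listed transcript runs from 138610967 to 138810089. CTNNA1 was at 409, 361 and 336 TPM in CES2 libraries, against 386, 365 and 376 TPM in Vector libraries. The Vector values fell inside the range of the CES2 values and were within 1.06-fold of one another; 98.5% of tested genes had a wider Vector range on the log2 scale. On the log2 scale the difference was -0.032 (SE 0.16), and its sign turned positive under median rescaling (0.031) and library weights (0.085). The transcript listed for CTNNA1 is a short protein-coding one of 6 exons and 696 bases, while the longest in the annotation has 3831 bases. Whether the deposited level refers to that transcript or to the whole gene is not given in the sources used here, which limits comparing its level with other genes.

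The ratio of the catenins varied less than that of the cadherins, a difference that was not tested. The CTNNA1 to CTNNB1 ratio was 1.75, 1.48 and 1.67 in CES2 libraries, against 1.74, 1.81 and 1.49 in Vector libraries, a log2 difference of -0.043 (exact two-sided permutation p = 0.6, adjusted p = 0.84 over 6 ratios). Beta-catenin transcripts exceeded those of E-cadherin in every library, with CTNNB1 to CDH1 ratios of 4.25, 3.97 and 5.24 in CES2 libraries, against 3.56, 5.001 and 3.42 in Vector libraries. The difference in that log2 ratio was 0.18 (exact two-sided permutation p = 0.5, adjusted p = 0.84 over 6 ratios).

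Among the junction genes CLDN4 varied most from library to library, with an SD of log2(TPM + 1) of 1.39. CLDN1 (0.442) and CDH3 (0.431) came next and were nearly level. Claudins are small membrane proteins that set how tight and how selective the seal is. The 250 bases before RefSeq start sites (GRCh38.p14) of CLDN7, CLDN4 and CLDN1 are shown, with the E-box CACCTG, read on both strands (CAGGTG), in capitals. Whether these letters bear on the spread among libraries was not tested. Repressors of the SNAI and ZEB families are known to bind this E-box.
CLDN7 (chr17:7262479-7262728, minus strand): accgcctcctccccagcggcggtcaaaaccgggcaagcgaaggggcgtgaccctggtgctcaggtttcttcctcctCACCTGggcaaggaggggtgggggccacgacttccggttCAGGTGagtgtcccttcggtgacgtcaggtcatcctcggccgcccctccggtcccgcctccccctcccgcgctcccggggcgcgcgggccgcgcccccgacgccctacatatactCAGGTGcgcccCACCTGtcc
CLDN4 (chr7:73830746-73830995, plus strand): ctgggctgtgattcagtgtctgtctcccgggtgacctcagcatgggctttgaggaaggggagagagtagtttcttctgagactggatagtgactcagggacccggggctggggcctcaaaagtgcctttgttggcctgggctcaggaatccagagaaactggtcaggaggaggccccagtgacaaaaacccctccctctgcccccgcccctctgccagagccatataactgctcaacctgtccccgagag
CLDN1 (chr3:190322447-190322696, minus strand): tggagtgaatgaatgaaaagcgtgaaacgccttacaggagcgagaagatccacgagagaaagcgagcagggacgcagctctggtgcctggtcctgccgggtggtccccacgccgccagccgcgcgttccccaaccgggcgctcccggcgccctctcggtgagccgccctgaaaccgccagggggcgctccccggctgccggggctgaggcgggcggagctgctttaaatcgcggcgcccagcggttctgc
The CLDN7 window shown held 4 E-boxes, which began 174, 135, 20 and 9 bases before the start site, while those of CLDN4 and CLDN1 held 0. The CLDN4 window lies inside the transcript listed for that gene, which begins at 73827744, so it does not describe that transcript's own start. Windows of OCLN (start sites 69492547 and 69492790) and TJP1 (29969049), not shown, held 1 E-box each, and the other TJP1 windows held 0. The table lists another start site for CLDN7, at 7263213, whose window (chr17:7263214-7263463) held 0 E-boxes and 0 GC boxes. An E-box occurred in 17.5% of 35116 promoter windows of 250 bases, and 4 or more occurred in 0.122% of them. The palindrome AACNNGTT, a core bound by grainyhead factors, was in none of the 3 windows shown and in 3.0% of all, and the GC box GGGCGG or its reverse complement CCGCCC was in all 3 and in 42.6% of all. A match describes the letters only. The promoter table had entries for 7 of the 10 members; CDH1, CDH3 and EPCAM had none.

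CLDN4 encodes claudin-4, a claudin of many glandular and mucosal epithelia. Its listed transcript (2 exons, 4163 bases) runs on the plus strand of chromosome 7 from 73827744 to 73832684. CLDN4 was at 256, 460 and 193 TPM in CES2 libraries, against 504, 233 and 26.6 TPM in Vector libraries. Vector 3 was 18.9-fold below Vector 1, while the CES2 libraries lay within 2.38-fold of one another. On the log2(TPM + 1) scale the Vector libraries spanned 4.19 units, and only 0.0819% of tested genes, 10 of 12210, had a wider Vector range. The fold change of 0.94 log2 units (SE 0.92) rested on Vector 3, since it was -0.27 without that library and 1.82 without Vector 1.

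CLDN1 encodes claudin-1, the barrier-forming claudin of stratified epithelium. The gene lies on the minus strand of chromosome 3, with a listed transcript of 4 exons and 3481 bases from 190305701 to 190322475. CLDN1 was at 33.1, 38.6 and 46.0 TPM in CES2 libraries, against 45.7, 28.5 and 18.4 TPM in Vector libraries. Vector 3 was again the lowest, and Vector 1 lay among the CES2 values. By limma the log2 fold change came to 0.41 (SE 0.32) (limma unadjusted p = 0.231). It was 0.10 without Vector 3 and 0.74 without Vector 1 (limma unadjusted p = 0.0283 in that fit).

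CLDN7 encodes claudin-7, which binds EPCAM at the lateral membrane. It lies on the minus strand of chromosome 17, with a listed transcript of 4 exons and 1542 bases from 7259903 to 7262478. CLDN7 was at 70.4, 79.2 and 45.7 TPM in CES2 libraries, against 94.99, 68.9 and 78.3 TPM in Vector libraries. CES2 3 was the lowest and Vector 1 the highest, and the other 4 libraries from both groups lay between 68.9 and 79.2 TPM. Its log2 fold change was -0.33 (SE 0.25) (limma unadjusted p = 0.216, the smallest among the members), and -0.099 without CES2 3.

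The balance of the claudins differed most in a single Vector library. CLDN4 made up 71.3%, 79.6% and 67.8% of the summed CLDN1, CLDN4 and CLDN7 level in CES2 libraries, against 78.2%, 70.5% and 21.6% in Vector libraries. In Vector 3 CLDN7 held 63.5% of that sum, and in the other 5 libraries 13.7% to 20.9%. The sum itself was 360, 577 and 285 TPM in CES2 libraries, against 644, 330 and 123.3 TPM in Vector libraries. For the CLDN4 to CLDN1 ratio the log2 difference was 0.53 (exact two-sided permutation p = 0.7, adjusted p = 0.84 over 6 ratios), and it was -0.38 without Vector 3.

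**Figure D3:**
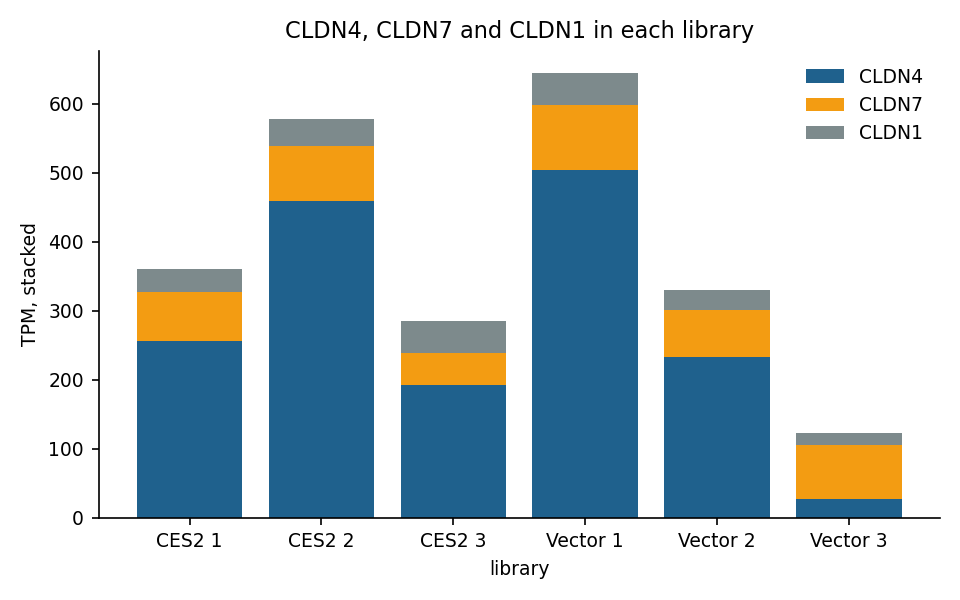
Stacked levels in TPM of CLDN4, CLDN7 and CLDN1 in each library, CES2 libraries on the left and Vector libraries on the right. CLDN4 forms most of each bar except in Vector 3, where it is 26.6 of 123.3 TPM.

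The low CLDN4 of Vector 3 was shared by other genes, which were looked up after its value had been seen. How many genes were lowest in Vector 3 was not counted, and only the closest profiles are given. Likeness was measured as the root mean square difference over 6 libraries between log2(TPM + 1) profiles, each centred on its gene's mean. Among all tested genes LPAR6, a receptor for lysophosphatidic acid, came closest to CLDN4, with a difference of 0.200 log2 units where CLDN4's own SD was 1.39. LPAR6 was at 10.5, 16.4 and 5.44 TPM in CES2 libraries, against 22.6, 7.33 and 0.301 TPM in Vector libraries. It ordered the libraries as CLDN4 did, with Vector 1 and CES2 2 at the top and Vector 3 at the bottom. Next were SERPINB4 (difference 0.444) and SERPINB3 (0.524), squamous cell carcinoma antigens that are near-identical neighbours, so their separate values are uncertain. SERPINB4 was at 15.4, 30.3 and 6.43 TPM in CES2 libraries, against 38.8, 10.1 and 1.67 TPM in Vector libraries. Profiles over so few libraries are a description, and all of these genes share the same libraries.

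**Figure D4:**
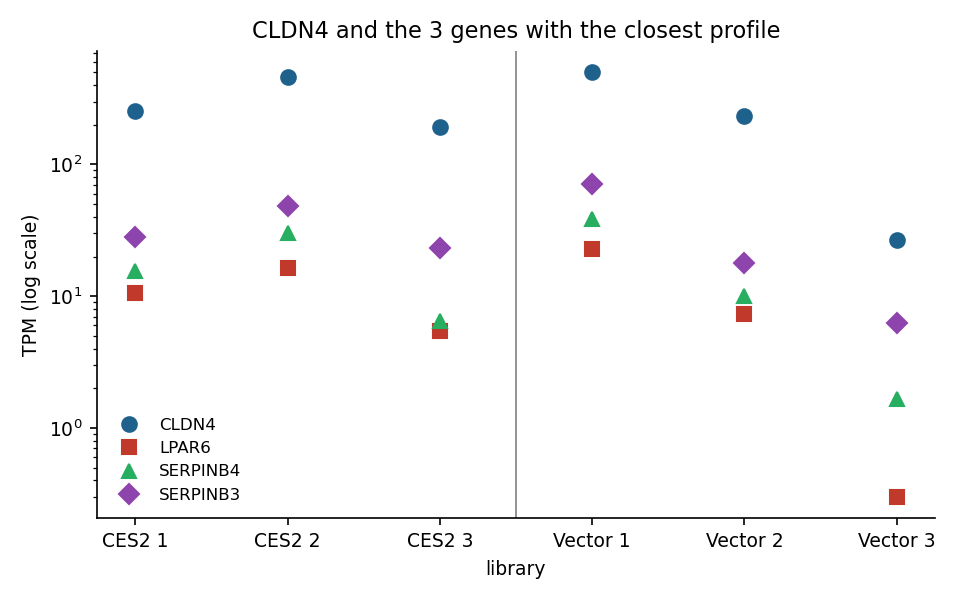
Levels in TPM (log axis) of CLDN4 and of the 3 tested genes whose profile over the libraries is closest to it, with CES2 libraries left of the line and Vector libraries right. All 4 genes have their lowest value in Vector 3, where LPAR6 is at 0.301 TPM, and their highest in Vector 1.

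OCLN encodes occludin, a membrane protein of the tight junction that is unrelated to the claudins. Its listed transcript (9 exons, 6438 bases) lies on the plus strand of chromosome 5 from 69492292 to 69558104. OCLN was at 23.8, 21.1 and 20.8 TPM in CES2 libraries, against 20.4, 22.5 and 31.8 TPM in Vector libraries. Vector 3 was the highest and the other 5 libraries lay close together across both groups. This gave a log2 fold change of -0.16 (SE 0.23), and 0.026 without Vector 3. A pseudogene of OCLN, OCLNP1, is annotated on the same chromosome, and CTNNA1 has one, CTNNA1P1; reads that match both copies make these values less certain.

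TJP1 encodes ZO-1, the PDZ scaffold that ties claudins and occludin to actin. Its listed transcript (28 exons, 7950 bases) is on the minus strand of chromosome 15 from 29699367 to 29822503. TJP1 was at 32.9, 29.9 and 40.8 TPM in CES2 libraries, against 36.3, 37.8 and 54.3 TPM in Vector libraries. Vector 3 was again the highest, and CES2 3 lay above the other Vector libraries. On the log2 scale the difference was -0.29 (SE 0.23) (limma unadjusted p = 0.242), and -0.11 without Vector 3.

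The scaffold and occludin kept a steadier ratio among Vector than among CES2 libraries, a difference that was not tested. TJP1 to OCLN ratios were 1.38, 1.42 and 1.96 in CES2 libraries, against 1.78, 1.68 and 1.71 in Vector libraries. Vector 3, with the highest level of both genes, had a ratio between those of the other Vector libraries, and CES2 3 had the highest ratio of all. The log2 difference was -0.13 (exact two-sided permutation p = 0.4, adjusted p = 0.84 over 6 ratios).

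EPCAM encodes a glycoprotein of the lateral membrane that modulates cadherin adhesion and is a common carcinoma antigen. It is on chromosome 2, plus strand, with a listed transcript of 10 exons and 1530 bases from 47345158 to 47386900. EPCAM was at 400.0, 320 and 457 TPM in CES2 libraries, against 314, 390 and 411 TPM in Vector libraries. The lowest values were those of CES2 2 and Vector 1, the libraries in which CDH3, CLDN4 and CLDN7 were highest. By limma the log2 fold change came to 0.072 (SE 0.20). The CLDN7 to EPCAM ratio spread widely, at 0.176, 0.247 and 0.10 in CES2 libraries, against 0.302, 0.177 and 0.191 in Vector libraries. Its log2 difference was -0.41 (exact two-sided permutation p = 0.4, adjusted p = 0.84 over 6 ratios), and it lay between -0.71 without CES2 2 and -0.055 without CES2 3.

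Across the members the libraries differed in ways the groups did not follow. Vector 1 and CES2 2, which also had the highest correlation over all tested genes, held the pair of highest values for CDH3, CLDN4 and CLDN7 and the pair of lowest for EPCAM. CES2 3 and Vector 2 held the pair of lowest values for CDH1, CDH3, CTNNB1 and CLDN7. Vector 3 had the highest level of 4 members (CDH1, CTNNB1, OCLN and TJP1) and the lowest of 2 (CLDN1 and CLDN4), and CES2 3 had the lowest of 5. With Vector 1 and CES2 2 both left out, an alternative added after seeing the data, 0 members were past the threshold.

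**Figure D5:**
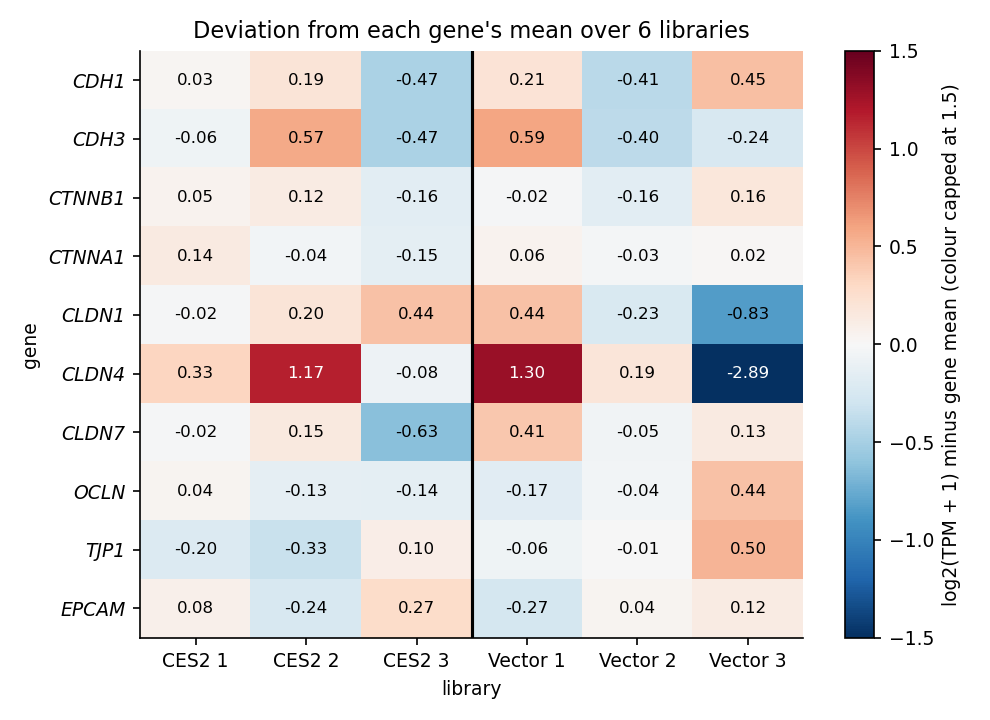
Difference of each library's log2(TPM + 1) from the gene's mean over 6 libraries, for the 10 junction genes (rows) and the libraries (columns, CES2 left of the line and Vector right). CLDN4 holds both the highest value shown, 1.2975 in Vector 1, and the lowest, -2.89 in Vector 3.

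By mean level over the 6 libraries EPCAM stood first at 382 TPM, followed by CTNNA1 at 372, CLDN4 at 279 and CTNNB1 at 226 TPM. The place of CTNNA1 is uncertain, since its level may refer to the short listed transcript or to the whole gene. EPCAM exceeded CTNNA1 in 3 of 6 libraries, so that order was not beyond their spread, and CLDN4 exceeded CTNNB1 in 4 of 6. CTNNB1 exceeded CDH3, the next at 83.7 TPM, in all 6 libraries. CDH3 exceeded CLDN7 (72.9 TPM) in 4 of 6, and CLDN7 exceeded CDH1 (55.2 TPM) in all 6. At the low end TJP1 at 38.7 TPM and CLDN1 at 35.0 TPM changed places, TJP1 being higher in 2 of 6 libraries, and OCLN was lowest at 23.4 TPM.

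Each member was also set beside the other members and all other listed genes, cell type markers included, by the same measure of likeness. The 115 candidates for each member had at least 1 TPM in every library. CDH1 came closest to CGN, which encodes the tight junction scaffold cingulin (difference 0.104 log2 units, against an SD of 0.334 for CDH1). CGN was at 25.3, 31.1 and 20.3 TPM in CES2 libraries, against 35.9, 22.5 and 37.6 TPM in Vector libraries, which is the order of libraries seen for CDH1. CDH3 came closest to CD9, a tetraspanin (0.123, against 0.431), which was at 492, 660 and 281 TPM in CES2 libraries, against 736, 351 and 387 TPM in Vector libraries. That too was the order of libraries of its partner, CDH3. CLDN7 was nearest ARHGEF2 (0.094), a protein held at tight junctions, and OCLN nearest GRHL2 (0.119), an epithelial transcription factor. CTNNB1 paired with ST14 (0.077), TJP1 with MARVELD1 (0.145), EPCAM with VPS4A (0.079) and CTNNA1 with ARF6 (0.059). CLDN1 came closest to KRT17 (0.286, against an SD of 0.442 for CLDN1), and CLDN4 to CLDN1 (1.04, against 1.39 for CLDN4). The measure grows with a gene's own spread. CTNNA1 had an SD of 0.088 and CTNNB1 one of 0.126, so their smaller differences do not mark nearer matches than that of CLDN1.

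The wider junction gene lists gave 0 genes past the threshold in either direction by limma. Among 15 other tested adherens junction genes, 4 had a log2 fold change above 0 and 11 below, with a median of -0.12. PLEKHA7, which links p120-catenin to microtubules, was at 28.2 ± 4.78 TPM in CES2 cells and 39.3 ± 7.58 TPM in Vector cells (SD, n = 3 each), or -0.46 on the log2 scale (limma unadjusted p = 0.0763). JUP, plakoglobin, the most abundant of the list, averaged 561 TPM in CES2 cells and 550 TPM in Vector cells. The neural cadherin CDH2, named after its values were seen, was below 0.5 TPM in all 6 libraries (highest 0.490 TPM).

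Apart from CLDN12, the claudins outside the set that had an entry were scarce. Of 17 listed, 12 had an entry, and the levels of the others are unknown. Of 5 tested, 1 was above 0 and 4 below, with a median log2 fold change of -0.16. CLDN12 was the highest, with means of 25.9 TPM in CES2 cells and 20.9 TPM in Vector cells, followed by CLDN15 at 7.17 TPM in CES2 cells and 8.69 TPM in Vector cells. CLDN3 was at 1.48, 4.54 and 2.37 TPM in CES2 libraries, against 3.29, 1.23 and 7.96 TPM in Vector libraries. In Vector 3, where CLDN4 was lowest, CLDN3 was highest.

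Other tight junction membrane proteins were at 3 above 0 and 6 below of 9 tested (median -0.12). ILDR1, a tricellular junction protein, had a log2 fold change of -0.27, and LSR, its relative and the most abundant of this list, one of 0.099. Scaffolds and polarity proteins were at 6 above and 15 below of 21 tested (median -0.18 beside -0.057 for all tested genes). AMOTL2, an angiomotin, averaged 92.4 TPM in CES2 cells and 120.2 TPM in Vector cells, a log2 fold change of -0.40 (limma unadjusted p = 0.139). It was -0.17 without CES2 1 and -0.81 with library weights (limma unadjusted p = 0.00661). Those weights were 6.86 for CES2 1 and at most 1.124 for any other library, so the weighted value rested mainly on CES2 1 in that group. YBX3, a DNA-binding partner of ZO-1, averaged 536 TPM in CES2 cells and 505 TPM in Vector cells. EPCAM partners and proteases were at 5 above and 8 below of 13 tested (median -0.037). ADAM10, a sheddase of E-cadherin, had a log2 fold change of -0.19.

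Regulators of the epithelial state also overlapped between groups. Of 12 listed transcriptional repressors of CDH1, 8 had an entry and 6 were tested. Of these 6, 3 were above 0 and 3 below (median 0.0041). ZEB1 had no entry, so its level is unknown, and ZEB2 was at most 0.132 TPM in any library. Both were named after their values were seen. TWIST1 was at 14.6, 17.5 and 6.47 TPM in CES2 libraries, against 11.03, 5.92 and 7.85 TPM in Vector libraries, a log2 fold change of 0.52 (limma unadjusted p = 0.21). It was 0.26 without CES2 2 and 0.91 without CES2 3 (limma unadjusted p = 0.0182). With library weights, which rest mainly on CES2 1 in that group, it was 0.74 (limma unadjusted p = 0.0281). SNAI2, which encodes Slug, averaged 16.4 TPM in CES2 cells and 16.2 TPM in Vector cells, and SNAI1, Snail, 2.29 TPM in CES2 cells and 2.22 TPM in Vector cells. TCF3 averaged 104 TPM in CES2 cells and 103 TPM in Vector cells, and TCF4 0.990 TPM in CES2 cells and 1.43 TPM in Vector cells. Of 11 epithelial transcription and splicing regulators, 4 were above 0 and 7 below (median -0.035), with ESRP2, a splicing regulator, at a log2 fold change of -0.34 and ELF3 at 0.11.

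Of 12 mesenchymal genes 6 had an entry and 5 were tested. Those with an entry were low in both groups, with summed levels of 16.7 to 46.2 TPM in CES2 libraries and 26.9 to 48.0 TPM in Vector libraries. The others, VIM among them, had no entry, so their levels are unknown. S100A4 had a log2 fold change of -0.33 and ITGA5 one of -0.10. Genes of cadherin endocytosis and beta-catenin turnover were at 6 above and 10 below of 16 tested (median -0.061). APC, the scaffold of the complex that degrades beta-catenin, was at 11.7 ± 0.716 TPM in CES2 cells and 15.6 ± 2.52 TPM in Vector cells (SD, n = 3 each), with each CES2 library below each Vector library. It was the 1 gene of this list of 16 with groups apart and lower in CES2, where 2.63% of all tested genes were so, and its log2 fold change of -0.37 did not pass (limma adjusted p = 0.9998, unadjusted p = 0.122). CSNK1A1, casein kinase 1 alpha of the same complex, had a log2 fold change of -0.071.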

How the data were processed

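RNA of 6 Cal33 libraries (3 CES2, 3 Vector) was rRNA-depleted and made into strand-specific libraries, per the labels' protocols. The authors deposited 1 table of TPM per gene and library; the unit was inferred from columns that sum to between 999804 and 999893. HISAT2 2.1.0, StringTie 1.3.3, edgeR 3.0.8, hg38 and GRCh38 are named in the submitters' processing notes, without roles; no annotation, filter or strand setting is given in the sources used here. CTNNB1, CTNNA1 and CLDN7 overlap the listed antisense neighbours ULK4, LRRTM2 and ELP5. Without a stated strand setting, reads from the shared stretches may not be told apart. CLDN7 also overlaps AC003688.1, a protein-coding gene on the same strand that has no entry. TPM keeps no depth, and scaling to a fixed total lets a few abundant genes shift all others. Blank cells (73 to 279 per library) were read as 0.

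Genes reaching 1 TPM in 3 or more libraries (12210) were tested with limma 3.58.1 in R 4.3.3 on log2(TPM + 1), with an intensity trend, group as the only term and Benjamini-Hochberg adjustment over all tested genes (threshold 0.05). The fit was tested on simulated data. Ratios within a library were compared by exact permutation. For all 10 members the listed transcript matched GENCODE 29 in its coordinates; promoter windows are from RefSeq (GRCh38.p14). Named genes were the members, CES2, the genes with the smallest p and the highest mean of each list (up to 3 and up to 2, with 1 of each given for most lists), and each member's closest gene; others are said to be chosen after their values were seen. One listed gene is not reported here. Members and lists were chosen with earlier results of these data known. Alternatives covered each library left out, a replicate block, scaling, filters, pseudocount, trend, library weights and the threshold. Plots used Python 3.11.15 with matplotlib 3.10.9.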

Additional observations from a re-analysis of the deposited data

How the results depend on the processing

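Under 16 alternatives 0 of the 10 members passed (lowest limma adjusted p 0.945), and 142 of 160 member fold changes kept their direction. The filters, the trend, the replicate block and the threshold cannot change a member's fold change, so directions kept there were fixed in advance. All 18 turned signs came from the remaining alternatives, and their causes were not tested. The count over all genes was 1 (CES2) except for 4 with library weights (also CCL2, CXCL1 and CXCL3), 2 without Vector 1 and CES2 2 (also S100A8) and 1 to 2 with single libraries left out, RTEL1-TNFRSF6B passing without CES2 3. These names were taken after their values were seen. The library weights were 6.86 for CES2 1 and 0.513 to 1.124 for the other libraries, so the CES2 side of the weighted fit rested mainly on CES2 1. Left-out libraries moved the members' median log2 fold change between -0.12 and 0.031. Scaling turned the sign to 0.031 for CTNNA1, 0.036 for SNAI2, 0.020 for CD9, 0.038 for GRHL2 and 0.018 for MARVELD1 (median rescaling), and to -0.0057 for CTNNB1, -0.0037 for EPCAM, 0.084 for SNAI2, 0.012 for GRHL2 and 0.0075 for MARVELD1 (quantile normalization). Library weights turned CTNNA1 to 0.085, JUP to -0.10, LSR to -0.055, SNAI1 to -0.10, TCF3 to -0.084, SNAI2 to 0.28, ITGA5 to 0.26, CD9 to 0.11, ARF6 to 0.028 and VPS4A to -0.059. Without Vector 1 and CES2 2 the sign turned for CTNNB1 (-0.056), JUP (-0.041), SNAI1 (-0.017), TCF3 (-0.11), CSNK1A1 (0.049) and CD9 (0.014). With each library left out in turn, log2 fold changes that crossed 0 spanned -0.41 to 0.030 for CDH1, -0.25 to 0.33 for CDH3, -0.065 to 0.096 for CTNNB1, -0.11 to 0.032 for CTNNA1, -0.27 to 1.82 for CLDN4, -0.28 to 0.026 for OCLN and -0.045 to 0.21 for EPCAM. For other named genes they spanned -0.16 to 0.20 (JUP), -0.79 to 0.21 (CLDN3), -0.034 to 0.24 (LSR), -0.079 to 0.28 (SNAI1), -0.14 to 0.14 (TCF3), -0.17 to 0.25 (SNAI2), -0.19 to 0.40 (ELF3), -0.65 to 0.031 (S100A4), -0.32 to 0.31 (ITGA5), -0.26 to 0.055 (CSNK1A1), -0.32 to 0.30 (CD9), -0.13 to 0.14 (GRHL2), -0.19 to 0.11 (MARVELD1) and -0.075 to 0.12 (VPS4A). Log2 ratio differences spanned -0.10 to 0.44 for CDH3 to CDH1, -0.13 to 0.027 for CTNNA1 to CTNNB1 and -0.38 to 1.09 for CLDN4 to CLDN1. Without crossing 0 they spanned 0.062 to 0.35 for CTNNB1 to CDH1, -0.71 to -0.055 for CLDN7 to EPCAM and -0.30 to -0.043 for TJP1 to OCLN, and log2 fold changes 0.10 to 0.74 (CLDN1), -0.49 to -0.099 (CLDN7), -0.41 to -0.11 (TJP1), 0.030 to 0.47 (CLDN12), -0.49 to -0.046 (CLDN15), -0.39 to -0.12 (ILDR1), -0.54 to -0.17 (AMOTL2), -0.33 to -0.083 (ADAM10), 0.26 to 0.91 (TWIST1) and -0.58 to -0.17 (ESRP2). With the replicate number as a block the counts were 1 over all genes and 0 among members. Same-numbered libraries correlated at 0.145, -0.524 and 0.375 in their deviations from group means. Pairs of different number ranged from -0.678 (CES2 3 and Vector 1) to 0.682 (CES2 2 and Vector 1). Deviations within a group of 3 sum to 0, so these values cannot decide whether same-numbered libraries shared a culture or batch. Sequencing depth is unknown, and no precision beyond the spread of 3 libraries per group can be given.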
